A study of Drosophila melanogaster with 31 samples.

Results

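Wing imaginal discs carrying clones mutant for both capicua (cic) and warts (wts) were compared with discs carrying control clones at day 5 of larval life. The comparison used 6 of the series' 31 samples: the 3 RNA-seq libraries labelled with cicQ474X and wts149 on the recombined chromosome, and the 3 with the FRT82B chromosome alone. Members were taken from the labels, and every gene of the count table was considered, which gave 17373 genes, of which 9004 had enough counts to be tested. Discs of cic alone (cicQ474X) and of wts alone (wts149) had 3 libraries each at day 5. They are used below to set the joint loss beside the single losses and to ask whether it departs from their sum. Their libraries also entered the estimate of scatter between replicates. Every group shared the ubxflp recombinase source, the FRT82B chromosome and a chromosome with a Minute mutation, M(3), and the ubiGFP marker, so the controls carried these too. Flies were raised at 25 degrees, late larvae (3rd instar) were dissected by hand, and each library pooled the wing discs of 12 to 35 larvae.

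The discs were mosaic. Homozygous cells grow beside heterozygous Minute cells, which are at a growth disadvantage, and the whole disc was lysed, so any change in the clones is diluted by the cells that did not recombine. In bulk RNA of this kind, fewer cells of a type and less RNA per cell cannot be told apart. Nothing in the labels says that replicates came from separate cultures. A p-value here therefore reflects only how far such pools scattered within groups, which may be technical. That scatter was estimated over all 18 RNA-seq libraries of the series, day 9 discs included, and not from the compared libraries alone.

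Capicua is an HMG-box repressor that holds down genes in cells without Ras signalling. When a ligand activates the EGF receptor, the Ras and MAP kinase cascade phosphorylates Capicua and relieves that repression, while the ETS activator encoded by pnt is switched on. Warts is the kinase at the end of the Hippo cascade: it phosphorylates the co-activator Yorkie and keeps it out of the nucleus, and its loss lets Yorkie and its DNA-binding partner Scalloped turn on genes of growth and survival. In the wing disc, EGFR signalling is known for patterning the veins and the notum, and Hippo signalling for setting organ size.

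The 6 libraries held 17965010 to 26217144 counts. The first principal component of the 6, with 45.4% of the variance, separated the cic wts libraries from the control libraries, and the second, with 22.8%, set control replicate 3 and cic wts replicates 2 and 3 apart from the others. Levels below are CPM, counts scaled to library size, on TMM-scaled library sizes, and a gene was called when its adjusted p was under 0.05. RNA of other larval tissues was present at uneven levels. The 13 salivary gland markers summed to 8.23, 10.9 and 7.21 CPM in cic wts replicates 1, 2 and 3, against 11.3, 273.5 and 6149 CPM in control replicates 1, 2 and 3. The 14 hemocyte markers summed to 1984 CPM in cic wts replicate 1 and to between 139 and 326 CPM in the other 5 libraries. The 10 fat body markers summed to 701 CPM in cic wts replicate 2 and to between 6.7 and 187 CPM elsewhere. The 15 markers of differentiated muscle, of which Tm1 had the highest level, summed to 1211, 1090 and 1114 CPM in cic wts discs, against 1250, 2111 and 1232 CPM in control discs, and control replicate 2 stands apart. Because of the salivary gland and hemocyte values, counts of genes are also given without control replicate 3 and cic wts replicate 1 together. The libraries highest in fat body markers (cic wts replicate 2) and muscle markers (control replicate 2) stay in that fit.

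RNA of both mutated genes was present in the cic wts discs, which also hold cells that did not recombine. Transcripts of cic stood at 454, 489.7 and 449.9 CPM in cic wts discs, against 569, 658 and 534 CPM in control discs, and those of wts at 162, 174 and 207 CPM in cic wts discs, against 99.3, 106 and 95 CPM in control discs. The lower level of cic (log2 fold change -0.34, adjusted p = 0.047) lost its call in 8 of 14 alternatives. The alleles were not read at the sequence level here. These levels therefore show RNA, and neither function nor the cells or alleles the RNA came from.

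Of the 9004 tested genes, 2022 (22.5%) were called: 1014 (11.3%) were higher and 1008 (11.2%) lower in cic wts discs. The changes were unequal in size. Among the rises 653 were smaller than 1.5-fold and 193 reached 2-fold, while 467 of the falls were smaller than 1.5-fold and 413 reached 2-fold. At 8-fold or more there were 21 rises and 97 falls. The median called rise was 0.45 on the log2 scale and the median called fall -0.68, against a median of 0.01 over all tested genes. Among the called genes, 1900 had no overlap between the 3 cic wts and the 3 control libraries. Irrespective of any call, 35.7% of tested genes had none. The split depends on scaling: with total counts in place of TMM, which moved the median of all genes to -0.04, 749 genes were higher and 1293 lower. Leaving out single libraries gave between 1369 calls (without cic wts replicate 2) and 2081 (without cic wts replicate 1), and leaving out control replicate 3 with cic wts replicate 1 gave 1837.

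**Figure D1:**
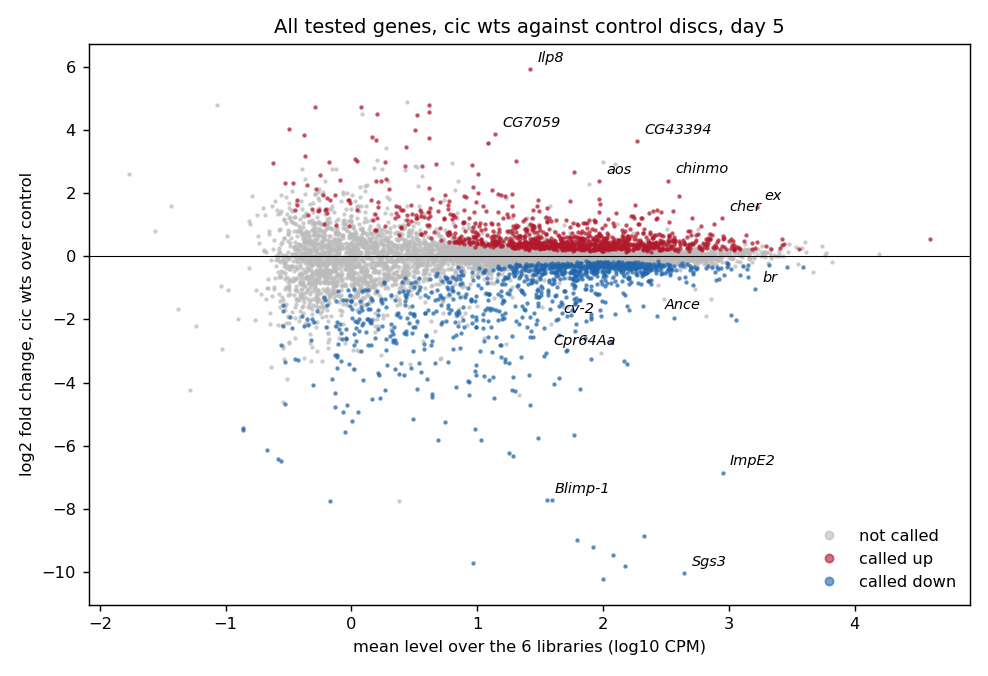
Log2 fold change of cic wts over control discs (vertical axis) against the mean level over the 6 libraries (log10 CPM) for the tested genes, with called rises in red, called falls in blue and the other genes in grey. The 3 tested genes at 0 CPM in these libraries are not drawn. Falls extend to larger fold changes than rises: 97 genes fell 8-fold or more and 21 rose as much.

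Induced inhibitors of EGFR signalling were among the rises. Of 10 tested genes listed as feedback inhibitors, 4 rose (40%) and 1 fell (10%), with a median log2 fold change of 0.16. Of all tested genes 11.3% rose and 11.2% fell. Whether Lrt and kek2, which are in this list, act as EGFR inhibitors was not tested here. Each of the 4 rises was seen whichever library was left out. The secreted inhibitor aos (argos, 3L:16470386-16483650), which binds the ligand Spitz, stood at 145, 163 and 159 CPM in cic wts discs, against 29.8, 32.1 and 27.1 CPM in control discs. No control library reached a level near that of any cic wts library, and the log2 fold change was 2.39 ± 0.11 (SE, adjusted p = 8.8e-09). Discs mutant for cic alone had 59.9, 43.9 and 63.1 CPM and discs mutant for wts alone 38.1, 37.4 and 40.9 CPM, so neither single loss gave the level of the joint loss. The Ras pathway antagonist sty (sprouty) stood at 285, 432 and 389 CPM in cic wts discs, against 129, 139.5 and 136 CPM in control discs, a change of 1.45 ± 0.14 log2 units (SE, adjusted p = 4.2e-06). Mkp3, a phosphatase that inactivates MAP kinase, rose by 0.64 ± 0.12 log2 units (SE, adjusted p = 0.0015), and its 3 cic wts libraries lay above the 3 control libraries. Lrt, a leucine-rich repeat transmembrane protein, rose by 0.58 ± 0.12 log2 units (SE, adjusted p = 0.0031). The exception in direction was kek2, a member of the Kekkon family of transmembrane proteins, which was low throughout, at 0.508, 0.67 and 0.431 CPM in cic wts discs, against 1.49, 1.11 and 1.75 CPM in control discs. Its relative kek1, an EGFR inhibitor, stood at 152, 236 and 233 CPM in cic wts discs, against 232, 215 and 261 CPM in control discs, and was not called (adjusted p = 0.42).

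**Figure D2:**
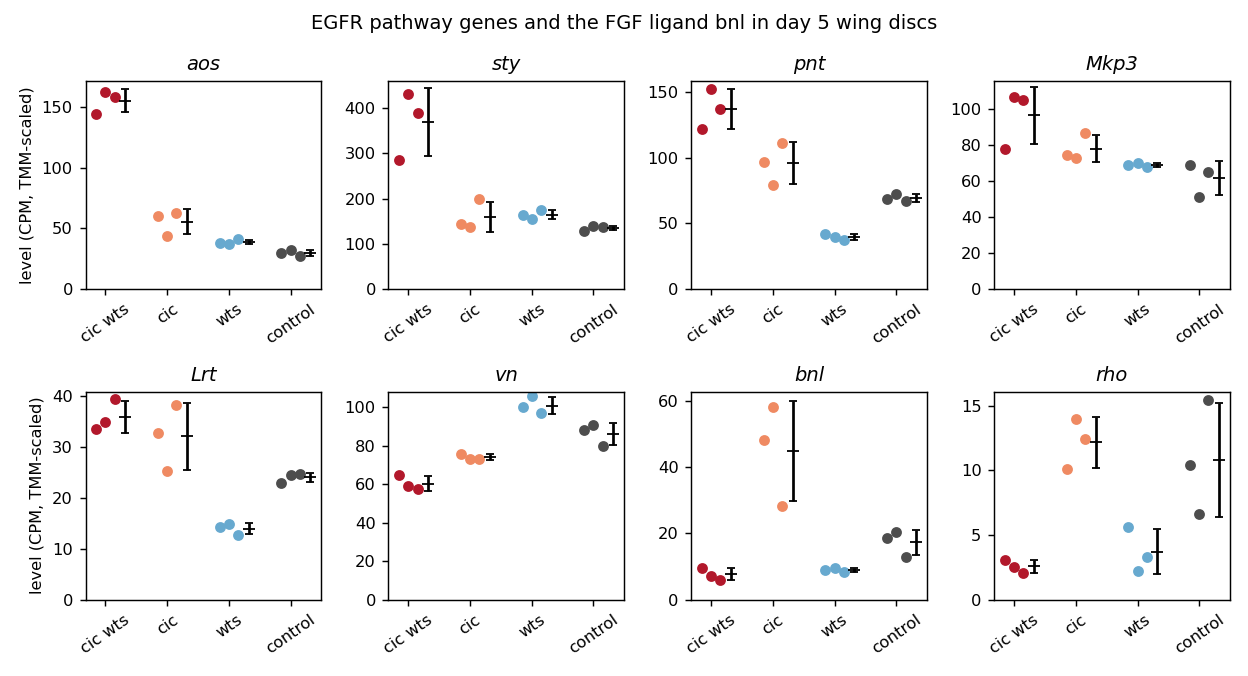
Levels (CPM, linear axes from 0) of 8 genes in each library of cic wts, cic, wts and control discs at day 5, with the mean and SD of 3 libraries as a bar beside the points. For aos, sty, pnt and Mkp3 the 3 cic wts libraries lie above the 3 control libraries, and for vn, bnl and rho below them.

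The ligands and their processing machinery did not move as one. Of 10 tested genes, 2 rose (20%) and 3 fell (30%, median -0.03), against 11.3% and 11.2% of all tested genes. The rises were spi and the inhibitor aos, which is also in this list. The neuregulin-like ligand vn (vein) was lower, at 64.6, 59 and 57.4 CPM in cic wts discs, against 88.2, 90.9 and 80 CPM in control discs, with -0.52 ± 0.06 log2 units (SE, adjusted p = 4.2e-05). The rhomboid protease rho, which releases active Spitz, was at 3.1, 2.51 and 2.08 CPM in cic wts discs, against 10.4, 6.62 and 15.4 CPM in control discs. These 2 sets of rho values did not overlap and the change was -2.08 ± 0.34 log2 units (SE, adjusted p = 0.00056). The ligand gene spi itself overlapped between groups, with a log2 fold change of 0.69 (adjusted p = 0.032). Its call was lost without cic wts replicates 2 or 3 or control replicates 1 or 2 (0.49, adjusted p = 0.13, without control replicate 1), and its value was 1.06 without control replicate 3. Within the cascade from receptor to kinase 1 of 15 tested genes rose (6.67%) and 2 fell (13.3%, median -0.05), near the shares of all tested genes. The riser was Nf1, a GTPase-activating protein that turns Ras off, at 165, 187 and 179 CPM in cic wts discs, against 107, 119.5 and 126 CPM in control discs, or 0.59 ± 0.12 log2 units (SE, adjusted p = 0.0031). Both falls, in phl (Raf) and Dsor1 (MEK), were smaller than 1.5-fold and were not called in 9 of 14 alternatives each. For Dsor1 the adjusted p was 0.28 without control replicate 3 and cic wts replicate 1.

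Among 17 tested nuclear factors and targets of Ras signalling, 5 rose (29.4%) and 6 fell (35.3%, median -0.08). Among all tested genes the shares were 11.3% and 11.2%. The falls include the mutated gene cic itself. The lists overlap: the rises aos, sty and Mkp3 and the falls vn and rho were counted above too. The ETS activator pnt (pointed, 3R:23290231-23346167) stood at 122, 153 and 137 CPM in cic wts discs, against 68.8, 72.6 and 67 CPM in control discs, a rise of 0.98 ± 0.11 log2 units (SE, adjusted p = 1.2e-05). In wts discs it stood lower, at 41.9, 39.5 and 37.2 CPM, and in cic discs at 96.4, 79.4 and 112 CPM. Its antagonist aop (yan), the ETS repressor, stood at 204, 209.7 and 205 CPM in cic wts discs, against 209, 225 and 218 CPM in control discs, which overlapped. The Iroquois gene mirr, which EGFR signalling is known to turn on in the notum, was lower in each cic wts library than in any control library, at 54.6, 74.8 and 83.8 CPM in cic wts discs, against 137, 121 and 149.5 CPM in control discs.

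Across the Hippo pathway 8 of 27 tested components rose (29.6%) and 7 fell (25.9%, median 0.00), against 11.3% and 11.2% of all tested genes. The rises include the mutated gene wts itself. The falls were less steady. They numbered 3 without cic wts replicate 3 or control replicate 3. Without cic wts replicates 1 or 2 or control replicate 2 they numbered 4. Upstream components that Yorkie itself is known to induce stood out among the rises. The FERM protein ex (expanded) had 2217, 2547 and 2733 CPM in cic wts discs, against 781, 917 and 845 CPM in control discs. The scaffold kibra had 243, 281 and 287 CPM in cic wts discs, against 90, 90.8 and 82.4 CPM in control discs. Both rose about as much in wts discs, with log2 fold changes of 1.44 and 1.67, while in cic discs they were -0.14 and -0.02. The atypical cadherin ft (fat), a receptor at the head of the pathway, rose by 0.63 ± 0.13 log2 units (SE, adjusted p = 0.0027). Falls included lft (lowfat), which binds Fat and Dachsous, with -0.87 ± 0.10 log2 units (SE, adjusted p = 3.2e-05), and Tgi, a co-repressor that competes with Yorkie for Scalloped, with -0.48 ± 0.10 log2 units (SE, adjusted p = 0.0033). The Ajuba protein jub, which holds Warts in check, stood at 80.5, 74.3 and 81.9 CPM in cic wts discs, against 104, 99.4 and 102 CPM in control discs, or -0.37 ± 0.07 log2 units (SE, adjusted p = 0.0021).

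Known Yorkie and Scalloped targets rose more often than they fell: 12 of 24 tested were called up and 4 down, with a median of 0.33. The shares were 50% up and 16.7% down, against 11.3% and 11.2% of all tested genes. Whichever single library was left out, 12 were called up. Beside ex and kibra, growth and survival genes were among them. The Drosophila Myc gene dm stood at 278, 325 and 284 CPM in cic wts discs, against 172, 192 and 174 CPM in control discs, a rise of 0.72 ± 0.09 log2 units (SE, adjusted p = 4.6e-05). The apoptosis inhibitor Diap1 rose by 0.37 ± 0.06 log2 units (SE, adjusted p = 0.00079), the filamin cher by 1.21 ± 0.16 log2 units (SE, adjusted p = 7.8e-05), the glypican dally by 0.45 ± 0.08 log2 units (SE, adjusted p = 0.00073), and the immunoglobulin-family protein Bsg by 0.29 ± 0.07 log2 units (SE, adjusted p = 0.0051). CycE, the cyclin of S phase entry, rose by 0.39 ± 0.10 log2 units (SE, adjusted p = 0.01). The BTB-domain transcription factor chinmo had 546, 599 and 509.5 CPM in cic wts discs, against 112, 126 and 75.6 CPM in control discs, and these were far apart. Against these, the wing selector vg (vestigial) was lower, at 135, 142 and 134 CPM in cic wts discs, against 252, 264 and 215 CPM in control discs. The phosphatase gene stg (string), which drives entry into mitosis, was higher in each cic wts library than in any control library, but did not pass the test (log2 fold change 0.86, adjusted p = 0.14).

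**Figure D3:**
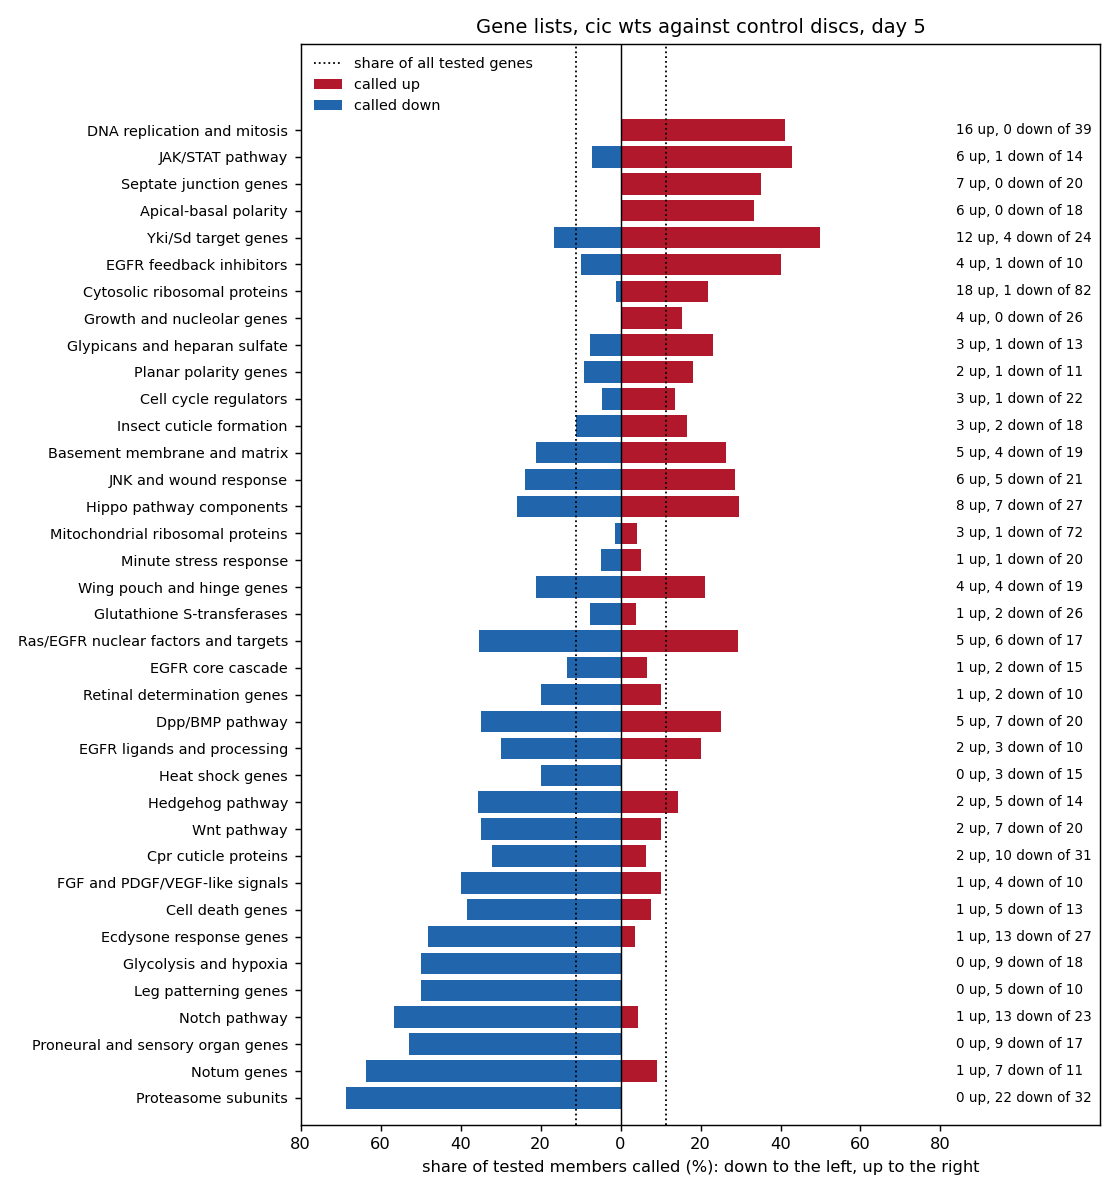
Share of tested members called up (red, to the right) and called down (blue, to the left) in cic wts against control discs for the 37 lists with at least 10 tested members. The dotted lines mark the shares among all tested genes, 11.3% up and 11.2% down, and the counts stand at the right.

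Large rises were shared with the wts discs. Ilp8 (3L:17029812-17032080), the relaxin-like hormone that growing or damaged discs release to delay pupariation, stood at 46.3, 41.3 and 67.3 CPM in cic wts discs, against 0.28, 1.87 and 0.318 CPM in control discs. Its log2 fold change was 5.92 ± 0.49 (SE, adjusted p = 9.4e-07), or 7.41 without control replicate 2, the library with the highest control level. By fold change the uncharacterized genes CG14957, CG5278 (sit in RefSeq) and CG13857 came next among the rises named, at low levels: CG14957 had 7.37, 8.32 and 8.5 CPM in cic wts discs, against 0.28, 0.533 and 0 CPM in control discs, with a log2 fold change of 4.81. The values were 4.48 for CG5278 and 4.01 for CG13857. Higher levels were reached by CG43394 and CG7059, also uncharacterized. CG43394 had 225, 373 and 434 CPM in cic wts discs, against 26.5, 28.8 and 26.1 CPM in control discs, and CG7059 had 26, 24.5 and 27.3 CPM in cic wts discs, against 1.35, 2.44 and 1.43 CPM in control discs. PK2-R2, a pyrokinin receptor, stood at 4.83, 7.88 and 10.4 CPM in cic wts discs, against 0.512, 0.711 and 0.477 CPM in control discs. In wts discs the log2 fold changes against the same controls were 5.84 for Ilp8, 5.02 for CG14957, 3.75 for CG43394, 3.03 for CG7059 and 3.49 for PK2-R2, while in cic discs they ran from -0.68 to 0.12. Among genes outside the mitochondrial genome, the rise in CPM was largest for ex, followed by Rm62, a DEAD-box RNA helicase, at 2775, 3394 and 3191 CPM in cic wts discs, against 2220.4, 2424 and 1774 CPM in control discs.

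Ligands of JAK/STAT and Activin signalling were among the rises. Of 14 tested JAK/STAT pathway genes, 6 rose (42.9%) and 1 fell (7.14%, median 0.33), against 11.3% and 11.2% of all tested genes. Without control replicate 3 and cic wts replicate 1 together, 3 rose. The ligand os (unpaired) had 24.7, 27 and 31.1 CPM in cic wts discs, against 11.1, 11.1 and 11.3 CPM in control discs, and its change was 1.31 ± 0.12 log2 units (SE, adjusted p = 2.1e-06). A second ligand of the family, upd3, was at 7.01, 5.14 and 5.76 CPM in cic wts discs, against 2.52, 2.27 and 2.01 CPM in control discs. Its log2 fold change of 1.39 (adjusted p = 0.0061) was 1.19 (adjusted p = 0.051) without the same libraries. The pathway's negative regulator Ptp61F rose by 0.24 ± 0.05 log2 units (SE, adjusted p = 0.0025). Among 5 tested genes of the Activin branch of TGF-beta signalling, 4 rose (80%, against 11.3% of all tested genes) and 0 fell (median 0.35). The rises were the ligands mav and myo, the receptor babo and the transducer Smox. Only the values of babo and Smox were free of overlap between the groups. The number of rises was 0 without cic wts replicate 2, when mav had a log2 fold change of 0.49 (adjusted p = 0.082), and 2 without control replicate 2. It was also 0 with the roX1 level as covariate and 0 in a fit of the 6 compared libraries alone.

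Of 10 tested FGF and PDGF/VEGF-like genes, 4 fell (40%, against 11.2% of all tested genes) and 1 rose (10%). The riser was the FGF ligand pyr (log2 fold change 0.44, adjusted p = 0.013), and the rises numbered 0 without cic wts replicate 2, without control replicate 3 or with the roX1 level as covariate, and 2 without control replicate 2. The ligand bnl (branchless) stood at 9.6, 7.26 and 6.03 CPM in cic wts discs, against 18.5, 20.3 and 12.9 CPM in control discs, and its receptor btl at 5.33, 5.75 and 4.54 CPM in cic wts discs, against 13.6, 13.9 and 14.1 CPM in control discs. Both pairs of groups were free of overlap, with -1.18 ± 0.26 log2 units (SE, adjusted p = 0.0046) for bnl and -1.42 ± 0.15 log2 units (SE, adjusted p = 8.3e-06) for btl. In cic discs bnl was higher instead, at 48.2, 58 and 28.2 CPM. The gene btl is also 1 of 9 tested trachea markers, of which 4 rose and 1, btl itself, fell (median 0.36). The receptor htl and its adaptor stumps act in the muscle progenitors that lie under the notum, and they fell by 0.56 and 0.62 on the log2 scale. The 9 markers of those progenitors, which include htl and stumps, summed to 407, 427 and 402 CPM in cic wts discs, against 667, 645.5 and 706.5 CPM in control discs, and 6 of the 9 fell. Ama, an immunoglobulin-family gene of the same list, stood at 55, 45.1 and 63.1 CPM in cic wts discs, against 199, 184 and 199.8 CPM in control discs, whereas the muscle factor Mef2 overlapped, at 77.5, 88.8 and 86.8 CPM in cic wts discs, against 87.8, 94.7 and 82.3 CPM in control discs. Of 14 tested markers of differentiated muscle 8 fell and 0 rose (median -3.06), but 0 fell without cic wts replicates 2 or 3 or control replicate 2 or in a fit of the 6 compared libraries, 1 with the roX1 level as covariate, and 12 without cic wts replicate 1. The part of muscle cells, their progenitors or trachea in the FGF result was not tested.

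Dpp/BMP signalling changed in both directions, with 5 of 20 tested genes up (25%) and 7 down (35%, median 0.03). Among all tested genes the shares were 11.3% and 11.2%. Repressors and antagonists of the pathway were among the rises. The repressor brk (brinker, X:7307939-7311132), which shuts off Dpp target genes, stood at 244, 391 and 376 CPM in cic wts discs, against 136, 111 and 141 CPM in control discs, or 1.38 ± 0.15 log2 units (SE, adjusted p = 1.3e-05). The secreted BMP antagonist sog had 276, 256 and 316 CPM in cic wts discs, against 125, 129.8 and 107 CPM in control discs, with 1.23 ± 0.09 log2 units (SE, adjusted p = 6.6e-07), and the secreted modulator magu (pentagone) rose by 0.67 ± 0.09 log2 units (SE, adjusted p = 0.00012). Genes that Dpp signalling is known to turn on or to use were among the falls. The T-box target bi (optomotor-blind) was at 90.4, 74.6 and 63 CPM in cic wts discs, against 256, 260.5 and 226 CPM in control discs, a change of -1.70 ± 0.13 log2 units (SE, adjusted p = 7e-07). The BMP-binding protein gene cv-2 (2R:21355015-21379464) was at 18.4, 14.6 and 16.9 CPM in cic wts discs, against 68.9, 69.2 and 64.9 CPM in control discs, and the type II receptor wit at 24.8, 25.7 and 24.8 CPM in cic wts discs, against 60.6, 68.4 and 76.2 CPM in control discs. No library of either group came near the other for cv-2 or wit.

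Wnt and Hedgehog components fell more often than they rose. In the Wnt list 2 of 20 tested genes rose (10%) and 7 fell (35%, median -0.19), against 11.3% and 11.2% of all tested genes. Wnt2 had 11.7, 10.3 and 11.3 CPM in cic wts discs, against 44.6, 25.5 and 55.3 CPM in control discs, Wnt6 fell by 0.88 ± 0.13 log2 units (SE, adjusted p = 0.00017), and nkd, an inhibitor that Wnt signalling induces, fell by 0.78 ± 0.11 log2 units (SE, adjusted p = 0.0001). The receptor fz2, which Wnt signalling represses, rose to 896, 1104 and 1219 CPM in cic wts discs, against 756, 737 and 724 CPM in control discs. The ligand wg had a log2 fold change of -0.63 (adjusted p = 0.014) and was no longer called without cic wts replicate 1 (-0.50, adjusted p = 0.053), control replicate 1 (-0.55, adjusted p = 0.061) or control replicate 3 (-0.55, adjusted p = 0.056). In the Hedgehog list 2 of 14 rose (14.3%) and 5 fell (35.7%, median -0.12), or 3 without control replicate 1. The ligand hh fell by 0.72 ± 0.12 log2 units (SE, adjusted p = 0.00044), and both the receptor ptc and the transcription factor kn (knot), which the pathway induces, were lower, with ptc at 131, 98.6 and 109.9 CPM in cic wts discs, against 226, 214 and 188 CPM in control discs. The co-receptor boi rose by 0.66 ± 0.08 log2 units (SE, adjusted p = 2.2e-05).

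Of 23 tested Notch pathway genes, 13 fell (56.5%, against 11.2% of all tested genes) and 1 rose (median -0.94). There were 11 to 13 falls when single libraries were left out. The Enhancer of split genes that Notch switches on were prominent. E(spl)m2-BFM stood at 7.21, 8.99 and 6.97 CPM in cic wts discs, against 52.7, 29.2 and 52.3 CPM in control discs, a change of -2.54 ± 0.20 log2 units (SE, adjusted p = 7.2e-07). The repressor gene E(spl)mbeta-HLH fell by 1.49 ± 0.16 log2 units (SE, adjusted p = 1e-05), and E(spl)m3-HLH fell by 0.96 ± 0.11 log2 units (SE, adjusted p = 1.9e-05). The riser was numb, which antagonises Notch in sensory organ lineages, with 0.38 ± 0.08 log2 units (SE, adjusted p = 0.0046). Among 17 tested proneural and sensory organ genes 9 fell (52.9%) and 0 rose (median -0.87). The count of falls was 5 without control replicate 3, and 4 without control replicate 3 and cic wts replicate 1 together. The proneural genes ac and sc stood at 6.71, 7.88 and 7.88 and at 11.6, 12.7 and 10.8 CPM in cic wts discs, against 16.7, 15.1 and 19.8 and 23.5, 17.3 and 33.3 CPM in control discs. The neural precursor gene dpn fell by 1.55 ± 0.21 log2 units (SE, adjusted p = 8.7e-05).

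In the notum list 7 of 11 tested genes fell and 1 rose (median -0.76), with 72.7% called against 22.5% of all tested genes. The falls numbered 7 whichever single library was left out. The notum factor eyg stood at 17.5, 21.4 and 21.7 CPM in cic wts discs, against 46.3, 43.7 and 43.1 CPM in control discs, with -1.14 ± 0.09 log2 units (SE, adjusted p = 8.9e-07). The GATA factor pnr of the medial notum fell by 1.06 ± 0.13 log2 units (SE, adjusted p = 3.5e-05), and the Iroquois gene ara of the lateral notum fell by 0.95 ± 0.13 log2 units (SE, adjusted p = 8.7e-05). The riser was tsh, whose call was lost without cic wts replicates 2 or 3 or control replicate 1 (adjusted p up to 0.065). Pouch and hinge genes were even, with 4 up and 4 down of 19 (42.1% called, median -0.05). The rises numbered 7 without cic wts replicate 1, and 2 without cic wts replicates 2 or 3 or control replicate 1. Of these genes rn rose by 0.46 ± 0.10 log2 units (SE, adjusted p = 0.0047) and ab by 0.79 ± 0.16 log2 units (SE, adjusted p = 0.0023), while pdm2 fell by 0.79 ± 0.13 log2 units (SE, adjusted p = 0.00056). The Dorsocross T-box genes Doc2 and Doc3 fell, with Doc2 at 7.57, 12 and 12 CPM in cic wts discs, against 16.3, 16.5 and 21.9 CPM in control discs. Doc3 had a log2 fold change of -1.09 (adjusted p = 0.0083), or -0.53 (adjusted p = 0.076) without control replicate 3 and cic wts replicate 1.

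Genes used more in other discs were among the falls. Of 10 tested leg patterning genes 5 fell (50%, against 11.2% of all tested genes) and 0 rose (median -1.47). The homeobox gene al had 15.3, 22.1 and 17.6 CPM in cic wts discs, against 69.2, 44.7 and 60.5 CPM in control discs, and ss, a bHLH-PAS factor of distal leg and antenna, fell by 1.18 ± 0.16 log2 units (SE, adjusted p = 0.00012). Among 10 retinal determination genes 2 fell, Optix and dac, and 1, tsh, rose (30% called, against 22.5% of all tested genes). Optix stood at 4.22, 3.8 and 5.13 CPM in cic wts discs, against 17.1, 16.3 and 19.7 CPM in control discs, and dac at 32.8, 29.3 and 17.8 CPM in cic wts discs, against 114, 55.3 and 92.7 CPM in control discs, without overlap. The Hox gene Ubx, which defines the haltere disc, stood at 10.8, 15.9 and 5.64 CPM in cic wts discs, against 70.4, 18.3 and 53.9 CPM in control discs. Control replicate 2 was again the low one of its group, close to cic wts replicate 2. Antp, the Hox gene of the wing-bearing segment, was called up with a log2 fold change of 0.28 (adjusted p = 0.045) and lost its call in 10 of the 14 alternatives. Of the 12 wing disc epithelium markers 6 fell, and their summed level was 2437, 2888 and 2773 CPM in cic wts discs, against 2990, 3039 and 3080.0 CPM in control discs. Whether neighbouring disc tissue was dissected along was not tested.

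Among the 9004 tested genes 97 fell 8-fold or more. Of these, 7 were ecdysone response genes, 7 salivary gland markers, 5 markers of differentiated muscle and 2 Cpr cuticle protein genes. Of 27 tested ecdysone response genes, 13 fell and 1 rose (51.9% called, against 22.5% of all tested genes, median -0.44). There were 9 to 13 falls when single libraries were left out. ImpE2 (3L:3510974-3512681), an ecdysone-inducible gene of the disc, stood at 2.39, 24.9 and 19 CPM in cic wts discs, against 2206, 452 and 2678 CPM in control discs. ImpE3, also ecdysone-inducible, stood at 0.559, 1.28 and 1.37 CPM in cic wts discs, against 82.5, 9.95 and 85.5 CPM in control discs. Each cic wts library was below each control library for both genes, yet control replicate 2 lay between the groups, nearer to cic wts than the other controls for ImpE3. The nuclear receptor Eip78C showed the same order, at 0.508, 0.335 and 0.549 CPM in cic wts discs, against 46.2, 5.64 and 62 CPM in control discs. So did the serpin Spn100A, at 0.406, 0.391 and 0.313 CPM in cic wts discs, against 163, 4.26 and 68.1 CPM in control discs. The repressor Blimp-1 was at 0.457, 0.391 and 0.196 CPM in cic wts discs, against 109.7, 0.577 and 104 CPM in control discs, so that control replicate 2 was close to the cic wts level. The log2 fold changes were -6.85 for ImpE2, -5.76 for ImpE3, -6.31 for Eip78C, -7.72 for Spn100A (-6.60 without control replicate 1) and -7.71 for Blimp-1, with adjusted p from 0.00034 to 0.007. For the receptor gene Hr46 the cic wts libraries held 0, 0 and 1 counts in all, while control levels were 37.1, 0.0888 and 18.5 CPM.

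The early ecdysone genes br and Eip75B had smaller fold changes. The Broad zinc-finger gene br stood at 937, 1049 and 1184 CPM in cic wts discs, against 2026, 2032 and 2459 CPM in control discs, a change of -1.04 ± 0.15 log2 units (SE, adjusted p = 0.00023), and the receptor gene Eip75B at 78.5, 88.2 and 99.7 CPM in cic wts discs, against 206, 173 and 248 CPM in control discs, or -1.23 ± 0.18 log2 units (SE, adjusted p = 0.0002). No control library, replicate 2 included, reached down to the cic wts range for br or Eip75B. The riser of the list was ftz-f1, a nuclear receptor that acts between ecdysone pulses, at 86.2, 109 and 87.6 CPM in cic wts discs, against 51, 49.2 and 34.6 CPM in control discs, with 1.07 ± 0.24 log2 units (SE, adjusted p = 0.0056). The falls of ImpE2, ImpE3 and Eip78C were also present in wts discs against the same controls, with log2 fold changes of -5.03, -4.26 and -5.74, while cic discs gave 0.48, 0.55 and 0.95, none of them called. Of 8 tested salivary gland markers 7 fell, or 1 in a fit of the 6 compared libraries alone, and 2 of the 8 had no overlap between the groups. Among these markers Sgs3 was at 0.978, 97.5 and 2564 CPM in control replicates 1, 2 and 3. The part of salivary gland RNA in the hormone result was not tested.

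**Figure D4:**
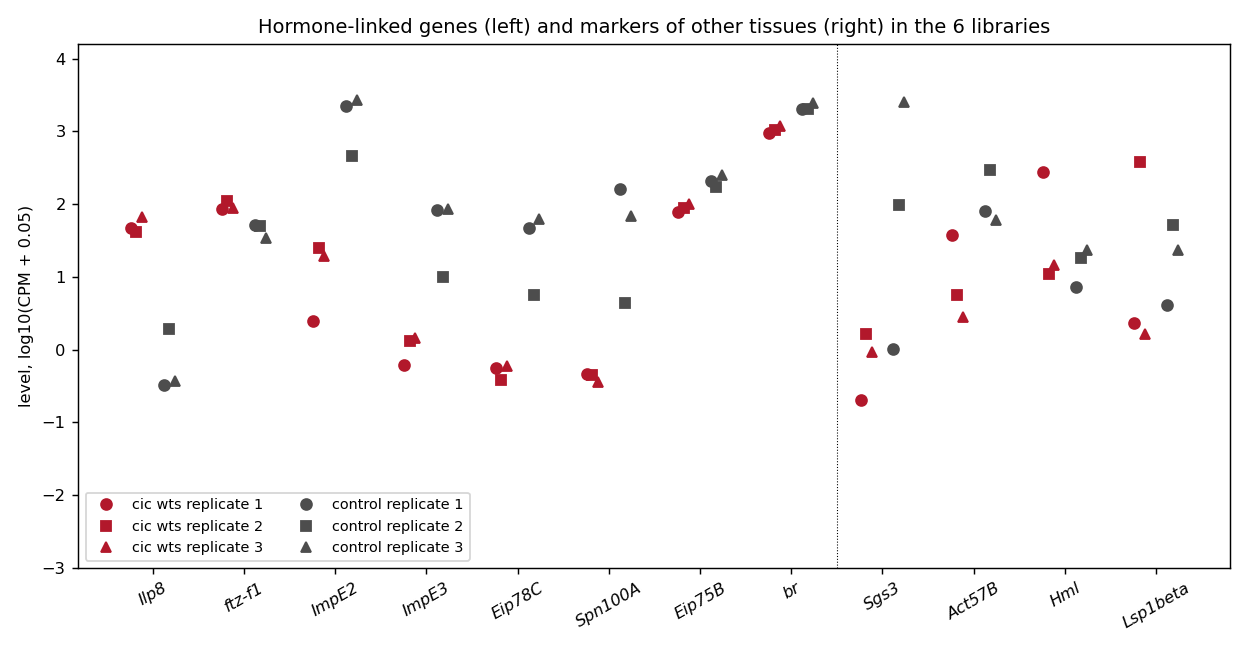
Levels, as log10(CPM + 0.05), of 8 hormone-linked genes and, right of the dotted line, 4 markers of other tissues in the 3 cic wts (red) and 3 control (grey) libraries, with a symbol per replicate. ImpE2, ImpE3, Eip78C and Spn100A are lower in each cic wts library than in each control library, with control replicate 2 the lowest control. Sgs3 is highest in control replicate 3, followed by control replicate 2. Hml and Lsp1beta also differ widely between libraries of a group.

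Of 31 tested Cpr genes, 10 fell and 2 rose (38.7% called, against 22.5% of all tested genes, median -0.65). Cpr64Aa stood at 8.08, 7.71 and 6.97 CPM in cic wts discs, against 60.8, 63.6 and 63.3 CPM in control discs, evenly in every library, a change of -3.05 ± 0.29 log2 units (SE, adjusted p = 3.5e-06). The rises, in Cpr49Ah and Cpr51A, were lost without any of 4 single libraries each, for example without cic wts replicate 2 (adjusted p = 0.062 and 0.13). Among 18 genes of cuticle formation 3 rose and 2 fell (27.8% called, near the 22.5% of all tested genes). The chitin deacetylase serp rose by 0.67 ± 0.14 log2 units (SE, adjusted p = 0.0026). Idgf6 (CG5210 in the count table), a chitinase-like growth factor, rose to 220.1, 111 and 106 CPM in cic wts discs, against 40.9, 56.4 and 25.8 CPM in control discs. The highest of these Idgf6 values was in cic wts replicate 1, the library rich in hemocyte RNA. The peptidase Ance (2L:13905645-13909212), a relative of angiotensin-converting enzyme, stood at 149.7, 98.7 and 95.4 CPM in cic wts discs, against 417, 407 and 453 CPM in control discs, or -1.89 ± 0.20 log2 units (SE, adjusted p = 8.7e-06).

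Of 15 tested heat shock genes, 3 fell (20.0%, against 11.2% of all tested genes) and 0 rose, with a median of -1.60, and 12 were not called. The falls were Hsp23, Hsp27 and Hsp67Ba, and that of Hsp23 lost its call in 5 of 14 alternatives. In the list 5 fell without control replicate 3 and 10 without control replicate 3 and cic wts replicate 1 together. Hsp27 stood at 721, 309.5 and 319 CPM in cic wts discs, against 2221, 1318 and 1363 CPM in control discs, and Hsp67Ba at 2.03, 1.56 and 1.02 CPM in cic wts discs, against 30.5, 16.5 and 22.9 CPM in control discs. Within cic wts discs replicate 1 was the highest of the group for both, and still below every control library.

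Of 13 tested cell death genes 5 fell and 1, Diap1, rose (46.2% called, against 22.5% of all tested genes). In a fit of the 6 compared libraries alone 2 fell. The pro-apoptotic gene hid stood at 36.7, 64.4 and 52.6 CPM in cic wts discs, against 85, 80 and 121 CPM in control discs, the caspase gene Dronc fell by 0.58 ± 0.12 log2 units (SE, adjusted p = 0.0025), and the caspase gene Strica fell by 0.98 ± 0.15 log2 units (SE, adjusted p = 0.00029). In the JNK and wound list 6 of 21 rose and 5 fell (52.4% called, median 0.13). The rises included rgn, named for disc regeneration, at 977, 1021 and 1082 CPM in cic wts discs, against 498, 589 and 406 CPM in control discs. The falls included the TNF ligand egr, with -1.0 ± 0.18 log2 units (SE, adjusted p = 0.00088), and scaf, a protease homologue, at 33.4, 30.7 and 32.9 CPM in cic wts discs, against 81.3, 97.8 and 86.7 CPM in control discs. Mmp2, a matrix metalloproteinase, fell to 6.55, 9.61 and 10 CPM in cic wts discs, against 55.9, 25.1 and 54.5 CPM in control discs, and its inhibitor Timp fell by 0.71 ± 0.16 log2 units (SE, adjusted p = 0.0062). Matrix genes as a list showed 5 rises and 4 falls of 19 (47.4% called). Without control replicate 3 and cic wts replicate 1 together there were 0 rises and 6 falls. The rises also numbered 1 to 3 without control replicates 1, 2 or 3 or cic wts replicates 1 or 3. Hemocytes are a known source of basement membrane, and their markers were high in cic wts replicate 1, but their part in the result was not tested.

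Of 39 tested DNA replication and mitosis genes 16 rose (41.0%, against 11.3% of all tested genes) and 0 fell (median 0.19), and 23 were not called. The number was 8 without control replicate 3, 7 in a fit of the 6 compared libraries, 9 with total-count scaling, and 7 without control replicate 3 and cic wts replicate 1 together. The mitotic kinesin gene Klp61F stood at 247, 240.1 and 239 CPM in cic wts discs, against 201, 193 and 196 CPM in control discs, and pav, a kinesin of cytokinesis, rose by 0.32 ± 0.06 log2 units (SE, adjusted p = 0.0013). Among 22 cell cycle regulators 3 rose (13.6%, near the share of all genes) and 1 fell, with the replication licensing gene dup up by 0.36 ± 0.08 log2 units (SE, adjusted p = 0.0038) and dap, a Cdk inhibitor, up by 0.56 ± 0.14 log2 units (SE, adjusted p = 0.0083). Growth and nucleolar genes gave 4 rises of 26 (15.4%, median 0.04), dm among them, or 2 without cic wts replicate 2 or control replicates 1 or 3 and 7 without control replicate 2.

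Of 82 tested cytosolic ribosomal protein genes 18 rose (22.0%, against 11.3% of all tested genes) and 1 fell (median 0.14), with 5 rises in a fit of the 6 compared libraries, 7 (8.54%) without control replicate 3, 11 without cic wts replicate 2 and 12 with total-count scaling. RpL15 stood at 1831, 2064 and 1872 CPM in cic wts discs, against 1383, 1521 and 1298 CPM in control discs. Of 72 mitochondrial ribosomal protein genes 3 rose (4.17%, below the share of all genes) and 1 fell (median 0.08). Proteasome subunits fell in 22 of 32 cases (68.8%, against 11.2% of all tested genes) and rose in 0 (median -0.26). The falls were small and numbered 6 without cic wts replicate 2, 9 without control replicates 1 or 3, 10 with the roX1 level as covariate and 4 in the fit of 6 libraries. Rpn13 of the regulatory particle stood at 117, 93.2 and 107 CPM in cic wts discs, against 151, 136 and 150.1 CPM in control discs, and Prosbeta3 of the core at 127, 109.7 and 131 CPM in cic wts discs, against 165, 151 and 185 CPM in control discs. For both genes the groups did not overlap. Glycolysis and hypoxia genes fell in 9 of 18 cases (50%) and rose in 0 (median -0.41). Pfk, which commits sugar to glycolysis, stood at 85.5, 80 and 82.9 CPM in cic wts discs, against 154, 137 and 154 CPM in control discs. Tpi fell by 0.92 ± 0.14 log2 units (SE, adjusted p = 0.00021), and the glucose transporter gene Glut1 fell by 1.57 ± 0.25 log2 units (SE, adjusted p = 0.00037).

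Of 20 tested septate junction genes 7 rose (35.0%, against 11.3% of all tested genes), 0 fell and 13 were not called (median 0.19). Without control replicate 3 and cic wts replicate 1 together 10 rose. The claudin gene sinu stood at 313, 386 and 356 CPM in cic wts discs, against 211, 223 and 230.3 CPM in control discs, the contactin gene Cont rose by 0.49 ± 0.08 log2 units (SE, adjusted p = 0.00037), and the neuroglian gene Nrg by 0.51 ± 0.07 log2 units (SE, adjusted p = 0.0001). Of 18 apical-basal polarity genes 6 rose (33.3%), 0 fell and 12 were not called (median 0.08), among them l(2)gl, with 0.49 ± 0.09 log2 units (SE, adjusted p = 0.0017), and sdt, with 0.57 ± 0.12 log2 units (SE, adjusted p = 0.0036). Enzymes of heparan sulfate, the sugar chain that glypicans carry, changed in opposite ways: Sulf1, which removes 6-O sulfate, rose by 0.74 ± 0.15 log2 units (SE, adjusted p = 0.0025), and Hs6st, which adds it, fell by 0.72 ± 0.10 log2 units (SE, adjusted p = 0.00012). The planar polarity gene pk (prickle) fell by 1.16 ± 0.15 log2 units (SE, adjusted p = 6.1e-05).

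Whether the joint loss departed from the sum of the single losses was tested as an interaction on the log2 scale over cic wts, cic, wts and control discs. It was called for 175 of the 9004 genes (1.94%), 67 above (0.744%) and 108 below (1.20%) the sum, with 395 calls by a DESeq2 Wald test, and 92 to 257 with edgeR when single libraries were left out (92 without wts replicate 1, 257 without cic replicate 1). Above the sum were pnt, by 1.33 ± 0.15 log2 units (SE, adjusted p = 0.00014), aos, by 1.10 ± 0.16 log2 units (SE, adjusted p = 0.0016), and Lrt, by 0.95 ± 0.17 log2 units (SE, adjusted p = 0.011). For pnt the wts discs were below control and the cic discs above it, so the single losses together summed to less than the joint loss. The interaction of sty was 0.92 ± 0.19 log2 units (SE, adjusted p = 0.021), and it was not called without cic replicate 2 (0.82, adjusted p = 0.062), control replicate 2 (0.90, adjusted p = 0.055) or wts replicates 1 or 2 (0.93 and 0.89, adjusted p = 0.051 and 0.056). For Mkp3 it was 0.15 ± 0.17 log2 units (SE, adjusted p = 0.75), which did not pass the test.

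Below the sum were genes of signalling, territory and death. For cv-2 the interaction was -1.0 ± 0.16 log2 units (SE, adjusted p = 0.005) and for wit -0.94 ± 0.16 log2 units (SE, adjusted p = 0.0078): in cic discs alone cv-2 had 89, 71.8 and 70.2 CPM and wit 63.3, 59.3 and 83.8 CPM, close to the control range. For the notum gene eyg it was -0.75 ± 0.13 log2 units (SE, adjusted p = 0.0078), for Doc2 -1.38 ± 0.24 log2 units (SE, adjusted p = 0.0076) and for hid -1.44 ± 0.27 log2 units (SE, adjusted p = 0.013). It was -0.52 ± 0.09 log2 units (SE, adjusted p = 0.0078) for vn, -1.19 ± 0.24 log2 units (SE, adjusted p = 0.015) for scaf, -1.41 ± 0.27 log2 units (SE, adjusted p = 0.014) for Ance and -1.97 ± 0.38 log2 units (SE, adjusted p = 0.014) for Cpr64Aa. For Doc2 the 3 cic wts libraries were the lowest of the 4 groups, against 16.5, 22 and 23.7 CPM in cic discs, 25.5, 24.2 and 22.4 CPM in wts discs and 16.3, 16.5 and 21.9 CPM in control discs. For Ance the cic discs had 355, 472 and 393 CPM and the wts discs 269, 384 and 304 CPM, between which and the cic wts values of 95.4 to 149.7 CPM there was no overlap. The interaction was 0.26 ± 0.14 log2 units (SE, adjusted p = 0.4) for ex, -0.03 ± 0.16 log2 units (SE, adjusted p = 0.96) for kibra, -0.04 ± 0.72 log2 units (SE, adjusted p = 0.99) for Ilp8 and 0.04 ± 0.26 log2 units (SE, adjusted p = 0.96) for CG43394, and none of these passed the test.

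**Figure D5:**
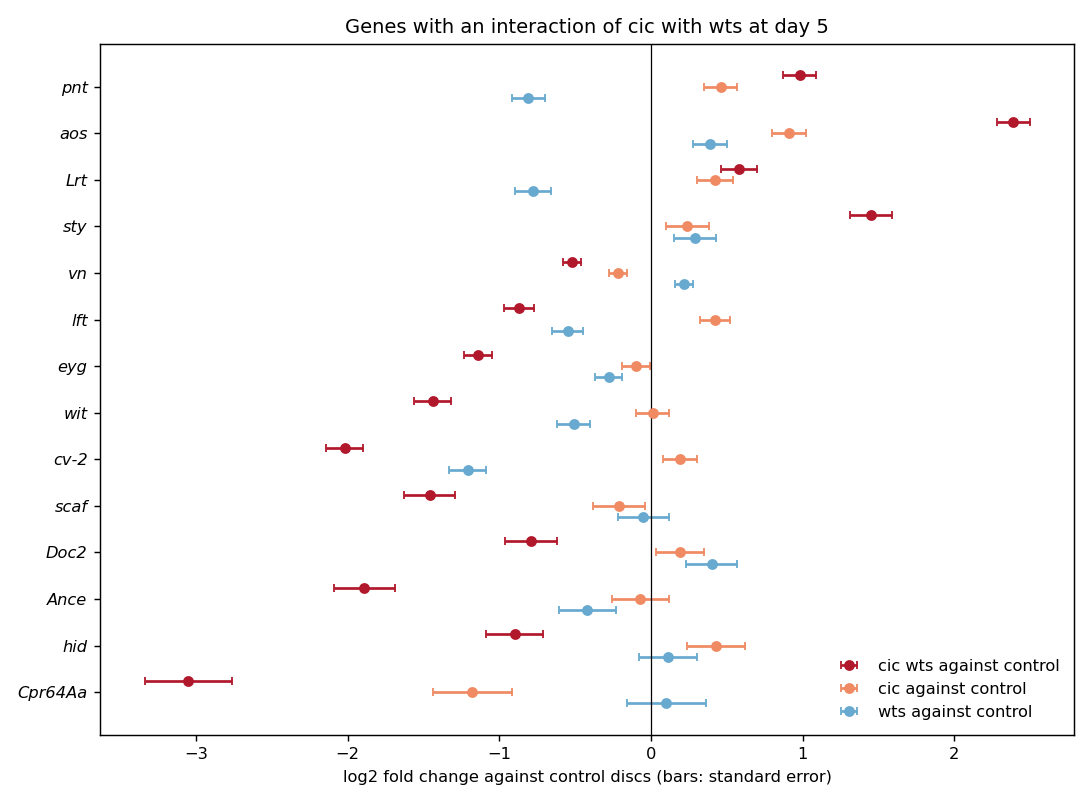
Log2 fold change with its standard error in cic wts (dark red), cic (orange) and wts (blue) discs, each against the same 3 control libraries, for 14 genes whose interaction of cic with wts was called. For pnt, aos, Lrt and sty the cic wts value lies to the right of the sum of the other two, and for the remaining genes to the left.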

How the data were processed

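Whole wing discs were profiled by mRNA sequencing (TruSeq, per the labels' protocols). What the authors deposited is a single table of raw counts. The submitters' processing notes name Bowtie2, TopHat2, HTSeq and DESeq2 with dm6. Tool versions and whether counting used strand are not stated, so overlapping genes and close paralogs may share reads. From these counts CPM, fold changes and tests were computed with edgeR 4.0.16 (R 4.3.3), using its expression filter, TMM factors and 1 quasi-likelihood fit of 18 libraries with a coefficient per group, and Benjamini-Hochberg adjustment over 9004 genes. Values after ± are standard errors of log2 fold changes. They were derived from the test, as the size of the log2 fold change over the square root of its F statistic. Symbols and coordinates came from a RefSeq table of release 6 (dm6), which knew 12766 genes by symbol and 4387 by a synonym and lacked 220.

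The comparison, gene lists and rule for genes that may be named (the mutated genes, all tested members of 3 lists, the largest rises and falls without overlap, and up to 3 rises and 3 falls per other list) were chosen with earlier results of these data known. Genes in the text are a selection from that rule made after values were seen, favouring calls that held. Replicates differed well beyond counting noise (chi-square per degree of freedom 35.6 to 61.5). Counts for cic wts against control were simulated over 8919 genes. There 67, 67 and 66 genes, all above a minimum control level, were changed 1.5, 2 and 4 times. Of these 56.7%, 79.1% and 84.8% were recovered, and 3.92% of calls fell on unchanged genes. Far fewer genes were changed there than the 22.5% of tested genes called here, so these rates need not hold for the comparison. Alternatives were RLE or total-count scaling, no low-count filter, DESeq2 1.42.0, a replicate block, only the compared libraries, the roX1 level as covariate, and libraries left out. The 13 samples without RNA-seq counts were not used here.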

Additional observations from a re-analysis of the deposited data

Results flagged for a closer look

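For each gene given here the change in whole-disc RNA with loss of cic differed between the control and the wts background at day 5. The difference itself was tested (the interaction on the log2 scale, edgeR's quasi-likelihood test, adjusted over 9004 genes). The part of the share of mutant cells per disc in these differences was not tested. Of all tested genes, 1.94% were called. Values in brackets are log2. Above the sum of the single losses were pnt (1.33), aos (1.10), Lrt (0.95), sty (0.92), the FGF ligand gene pyr (0.72), the replication licensing gene dup (0.53) and the spindle gene asp (0.43).

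Below the sum were the signalling genes bnl (-1.61), vn (-0.52), cv-2 (-1.0), wit (-0.94), lft (-0.73), stumps (-0.47) and E(spl)m2-BFM (-1.12). The territory genes eyg (-0.75), ara (-0.73) and Doc2 (-1.38) were below it too, as were the cell death genes hid (-1.44) and Dronc (-0.81). The remaining genes below the sum were scaf (-1.19), Pfk (-0.59), Ance (-1.41), Ama (-1.04), Cpr64Aa (-1.97), Cpr65Ec (-2.65) and CG15282 (-4.12). CG15282 stood at 0.406, 0.447 and 0.353 CPM in cic wts discs, against 6.2, 8.35 and 10.5 CPM in control discs.

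The calls of aos, pnt, vn, CG15282, cv-2, wit, eyg, Doc2, hid, Ance and Cpr64Aa held in all 20 alternatives. That of stumps (adjusted p = 0.045) was lost in 18, those of E(spl)m2-BFM (0.046) and Ama (0.039) in 13, that of ara (0.047) in 12, that of Pfk (0.032) in 11 and that of bnl (0.035) in 10. That of pyr (0.035) was lost in 9, those of asp (0.026) and Cpr65Ec (0.036) in 8, those of dup (0.022) and sty (0.021) in 5 and that of Dronc (0.017) in 2. The call of lft was lost without cic wts replicate 3 (-0.65, adjusted p = 0.05), and those of Lrt and scaf in the fit of the 12 day 5 libraries alone (adjusted p = 0.051 and 0.055). Every interaction uses the 3 control libraries, which the single comparisons share.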

How the results depend on the processing

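In cic wts against control, 2681 values of 192 called genes were recomputed under the alternatives: 2430 kept their direction and call, 249 lost the call and 2, both of Hml, turned round. Of 490 values of 35 genes that were not called, 26 gained a call with the same sign and 28, of 14 genes, changed sign, 1 of them with a call. The values that turned round with a call in either fit were those of Hml, whose log2 fold change of 2.66 became -0.00 (adjusted p = 1) without control replicate 3 and cic wts replicate 1 and -0.35 (adjusted p = 0.64) without cic wts replicate 1 alone (up to 3.20 without other single libraries), and Lsp1gamma, at -4.30 (adjusted p = 0.02) without cic wts replicate 2 and up to 1.94 without others. In a fit of the 6 compared libraries alone the calls were 1044 (526 up, 518 down). Of the 192 called genes recomputed, 47 lost their call there. Among them were kek2, Doc2, Doc3, hid and Ubx (adjusted p from 0.05 to 0.084). The 47 also included spi (adjusted p = 0.13), wg (0.056), tsh (0.08) and Hsp23 (0.083). Counts of falls in that fit were 4 for the Hippo and 4 for the Wnt list, 3 for the Hedgehog and 3 for the proneural list and 6 for the Cpr genes. With roX1 as covariate CycE was not called (0.28, adjusted p = 0.055). For the interaction, DESeq2 gave 395 calls (189 up, 206 down), the 12 day 5 libraries alone 78 (29 up, 49 down), and leaving out single libraries 92 to 257 (39 to 134 up, 53 to 128 down). The causes were not tested. Replicate numbers did not pair the samples (correlations of same-numbered deviations 0.086, -0.086 and 0.078). With the replicate block 2091 genes were called in cic wts against control and 165 for the interaction. In simulated data, with far fewer genes changed than were called here, 56.7% of changes of 1.5 times were recovered. A gene not called may therefore still differ by that much.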

Other observations

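Chromosome 4, the smallest autosome, was read as a class of genes in a look at all chromosome arms, made after the values were seen. Of its 82 tested genes, 19 (23.2%) were higher and 0 lower in cic wts discs, with a median log2 fold change of 0.26, and 67 had a positive value. On the other arms the share that rose was between 9.88% (X) and 12.5% (3L), and medians lay between -0.02 and 0.04. Among the 19 were the Activin-branch ligand genes mav and myo, the Wnt transcription factor gene pan and the ribosomal protein gene RpS3A. The synaptic gene unc-13 stood at 565, 757 and 694 CPM in cic wts discs, against 396, 455 and 416 CPM in control discs. CaMKII stood at 298, 410.5 and 354 CPM in cic wts discs, against 241, 270.4 and 255 CPM in control discs.

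The number of these rises depended on the libraries: it was 5 without cic wts replicate 2 and 32 without cic wts replicate 1. With total-count scaling 13 rose and 1 fell, and with the roX1 level as a covariate 6 rose and 2 fell. The male-specific RNA roX1 stood at 420.1, 1036 and 759.5 CPM in cic wts discs, against 224, 407 and 579.9 CPM in control discs. It was highest in cic wts replicate 2 and lowest in control replicate 1, and the groups overlapped. In wts discs 11 genes of chromosome 4 rose and 2 fell against the same controls, and in cic discs 1 rose and 0 fell. The part of the sex makeup of the pools was not tested beyond the fit with roX1.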
